A study of Rattus norvegicus with 38 samples.

Results

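Livers of LPS-injected rats that received the extract PF together with the extract EF (LPS_EF_PF, n = 4, libraries 1, 3, 4 and 6) were compared with those of LPS-injected rats that received EF alone (LPS_EF, n = 5, libraries 3 to 7). These 9 libraries were taken by their group labels from the 38 bulk RNA sequencing libraries of the series. All rats were of the Sprague-Dawley strain, all 9 had lipopolysaccharide (LPS) injected into the peritoneal cavity, and livers were collected on day 28. EF and PF were given into the stomach at 2.5 g/kg each. EF, PF and a further extract, RD (200 mg/kg), are named in the labels by these letters only. How much LPS was injected, and how long before liver collection, is not given in the sources used here. Because the LPS_EF rats also received EF, the comparison measures what PF added to EF, and PF without EF was not analysed here. The other 6 groups, used for reference levels, were control, EF, EF_PF, EF_RD, LPS and LPS_EF_RD. Per the design text the samples are biological replicates, and nothing in the labels says which animals shared a litter or cage.

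LPS, a cell wall component of gram-negative bacteria, is sensed through Toll-like receptor 4 and drives the liver to make acute phase proteins such as the LPS-binding protein Lbp and, in the rat, alpha-2-macroglobulin (A2m), while genes of hepatic metabolism are commonly turned down. A separate sensing system, the aryl hydrocarbon (Ah) receptor, is a transcription factor that is activated by many planar aromatic compounds, including constituents of plants. It pairs with Arnt, binds response elements with the core GCGTG, and induces the cytochromes P450 of the Cyp1 family, among which Cyp1a1 is the usual marker gene because its level in an unexposed liver is low.

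The number of read pairs counted to genes ranged from 25447830 to 27073411 in LPS_EF and from 23371592 to 35835012 in LPS_EF_PF. The labels name the cell type hepatocyte and the source liver. Transcripts of albumin (Alb) ran from 79780 to 123800 CPM (read pairs relative to library size, scaled for library composition) in the 9 libraries, all 19 hepatocyte markers listed were detected, and so were all 18 Kupffer cell and all 18 endothelial markers, so the libraries hold RNA of other liver cells too. In such bulk samples, fewer cells of a type and less RNA per cell cannot be told apart.

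One library stood apart from its group label before any comparison was made. LPS_EF 7 had 251.8 CPM of Lbp, whereas the other 4 LPS_EF libraries had 2350 to 3022 and the 4 LPS_EF_PF libraries had 2432 to 2969. The range of Lbp in the 5 control livers was 102.4 to 160.3 CPM, and in the 5 EF livers without LPS 111 to 422.3. A2m gave the same order, with 5.84 CPM in LPS_EF 7, 84.1 to 223.1 in the other LPS_EF libraries, 86.6 to 167 in LPS_EF_PF and at most 2.04 in control. In EF without LPS, A2m ran from 1.64 to 17.18 CPM, so for both genes LPS_EF 7 lay inside the EF range. The first principal component over the 9 libraries, with 30.7% of the variance, placed LPS_EF 7 at 64.3 and the other 8 libraries between -23.9 and 11.9. LPS_EF 7 thus had little of the Lbp and A2m response that its label implies. Of the other genes that check the LPS response, Ncf1, Tlr2 and Siglec10 were above all control livers, and above all EF livers without LPS, in this library. Ncf1 was at 8.83 CPM, against at most 4.88 in control and 20.8 to 36.8 in LPS_EF 3 to 6. Tlr2 was at 5.57 CPM, against at most 3.335 in control and 9.02 to 15.7 in LPS_EF 3 to 6. Siglec10 was at 3.37 CPM, against at most 1.11 in control and 3.54 to 12.2 in LPS_EF 3 to 6. The main results below are given with LPS_EF 7 and without it. Lcn2, the iron-chelating acute phase protein lipocalin 2, divided both groups. It measured 31.9, 1879, 1112, 1307 and 42.4 CPM in LPS_EF 3 to 7 and 36.4, 30.4, 34.5 and 1085 CPM in LPS_EF_PF 1, 3, 4 and 6. In control it was at most 4.97 CPM, but in EF without LPS it reached 51.45 CPM, above the low values of both groups. Low values in 2 of 5 and 3 of 4 libraries meant that Lcn2 did not separate the groups (log2 fold change -1.56 ± 1.45, SE, and -1.87 ± 1.49 without LPS_EF 7).

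**Figure D1:**
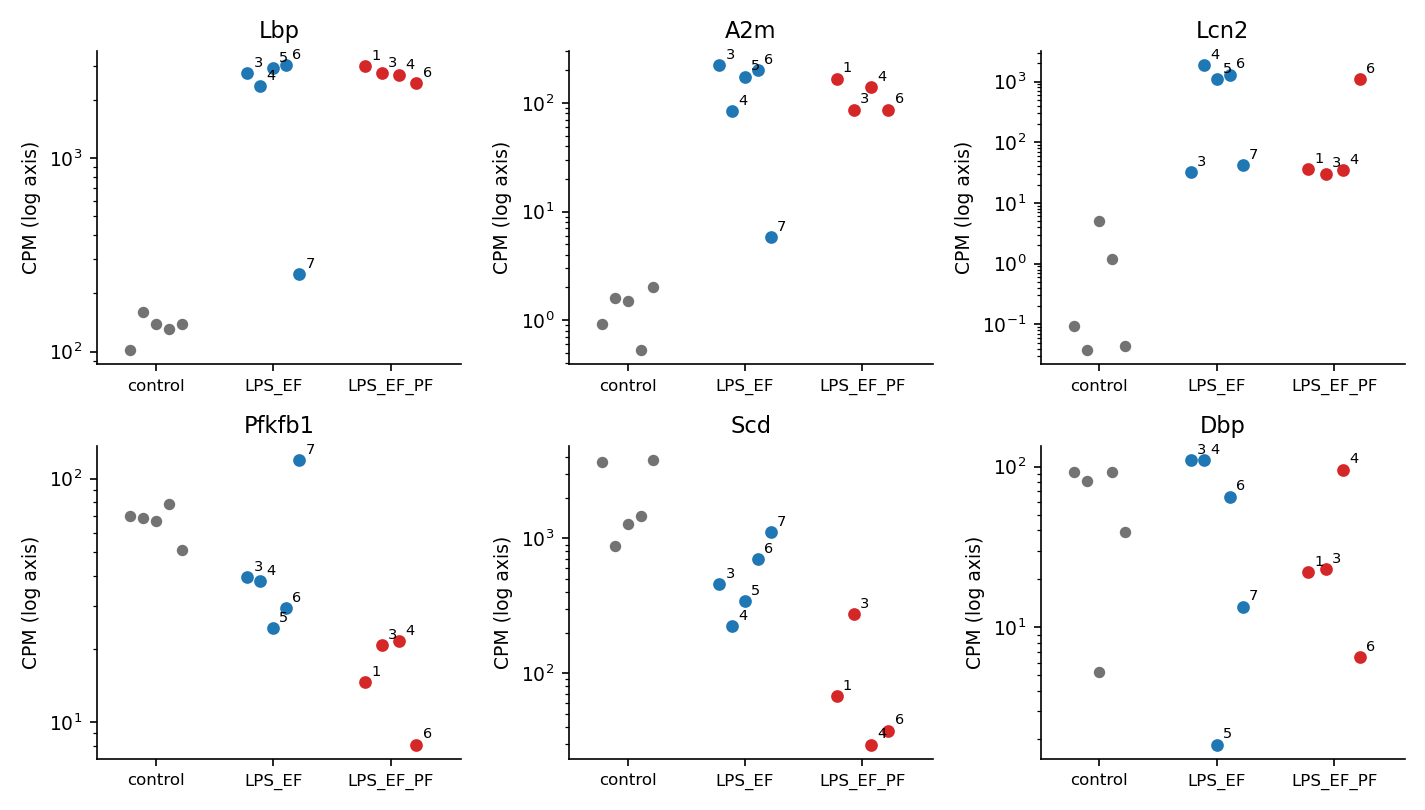
CPM (log axis) of 6 genes in the control livers (n = 5, grey), LPS_EF (n = 5, blue) and LPS_EF_PF (n = 4, red), 1 point a library, numbered by library. LPS_EF 7 lies near the control livers for Lbp, at 251.8 CPM, and is the highest LPS_EF library for Pfkfb1 and Scd, while Lcn2 and Dbp spread widely within both groups.

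Cyp1a1, a monooxygenase that oxidises aromatic compounds, was higher in LPS_EF_PF than in LPS_EF, and it was the only gene of 14786 tested that passed an adjusted p of 0.05 (0.00676% of the genes tested). The LPS_EF libraries 3 to 7 held 0.933, 3.06, 2.61, 4.17 and 5.35 CPM. The LPS_EF_PF libraries 1, 3, 4 and 6 held 39.5, 41.05, 39.0 and 78.1 CPM. The groups did not overlap, and the lowest LPS_EF_PF value was well above the highest LPS_EF value. In read pairs these were 24 to 143 per LPS_EF library and 983 to 2198 per LPS_EF_PF library, so the difference does not rest on a handful of reads. The ratio of the group means was 15.3, and the log2 fold change was 3.93 ± 0.54 (SE, adjusted p = 0.000365, edgeR quasi-likelihood test with Benjamini-Hochberg adjustment). Without LPS_EF 7 it was 4.19 ± 0.60 (adjusted p = 0.000885), and Cyp1a1 was again the only gene called, of 14769 (0.00677%). The gene lies at chr8:62472087-62478122 in the rn6 annotation of the count table.

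Across all 8 groups, the mean Cyp1a1 level was 126.5 ± 67.1 CPM (SD) in EF_PF, 49.4 ± 19.1 in LPS_EF_PF, 5.07 ± 2.51 in EF_RD, 3.225 ± 1.66 in LPS_EF, 2.91 ± 2.21 in EF, 2.07 ± 1.87 in LPS_EF_RD, 0.942 ± 0.596 in control and 0.601 ± 0.328 in LPS (n = 5 each, 4 in LPS_EF_PF and EF_RD). Going down this order, the library ranges of neighbouring groups overlapped at every step but 1, that from LPS_EF_PF (lowest library 39.0) to EF_RD (highest library 8.58). Both groups that received PF therefore lay above all others.

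**Figure D2:**
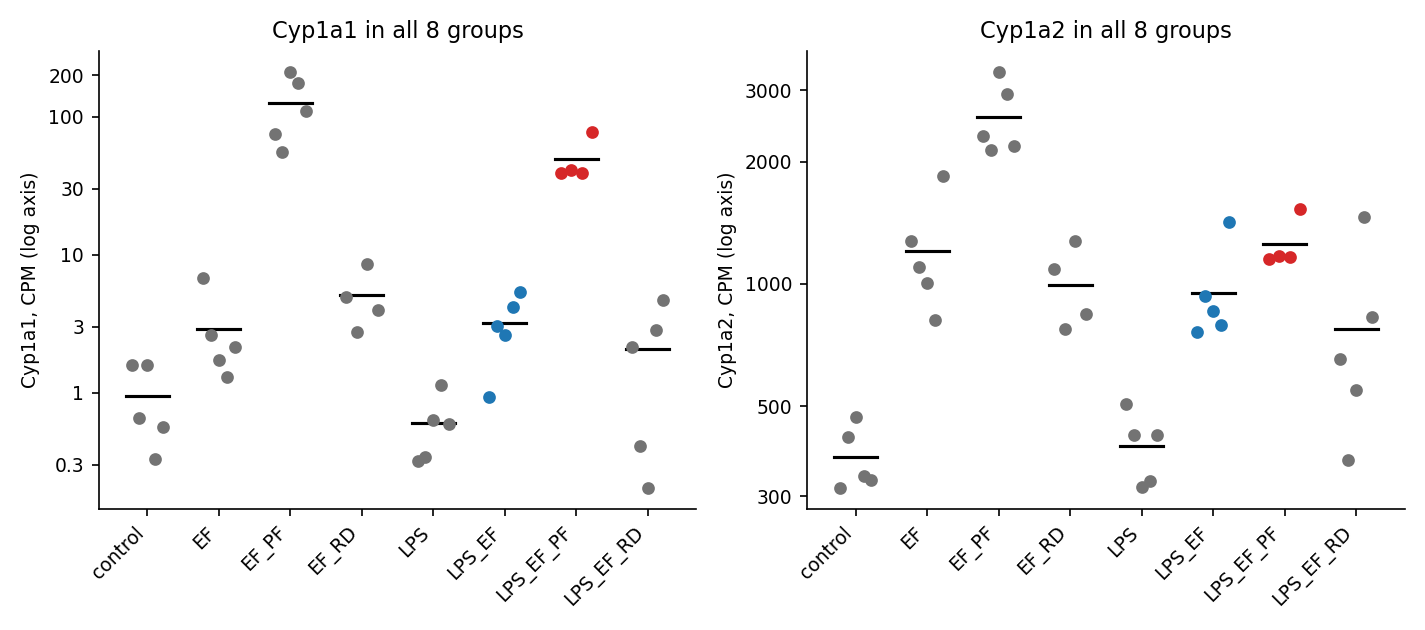
CPM (log axis) of Cyp1a1 and Cyp1a2 in the 8 groups, 1 point a library, with the group mean as a line, LPS_EF in blue and LPS_EF_PF in red. For Cyp1a1 the 2 groups given PF stand above the other 6, whereas for Cyp1a2 the LPS_EF_PF range of 1155 to 1531 CPM overlaps that of LPS_EF through LPS_EF 7 at 1419.

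The remaining members of the Ah receptor list did not pass the test. Of 9 genes listed, 7 were tested, and Ahrr, the repressor of the receptor, and Aldh3a1, an aldehyde dehydrogenase, were too low, with at most 9 and 3 read pairs in any of the 9 libraries. Cyp1a2, the liver's constitutive member of the family and neighbour of Cyp1a1 at chr8:62451360-62458244 (rn6), measured 760.4, 932, 856, 794 and 1419 CPM in LPS_EF 3 to 7 and 1155, 1174, 1168 and 1531 CPM in LPS_EF_PF 1, 3, 4 and 6. The groups overlapped only through LPS_EF 7. The log2 fold change of Cyp1a2 was 0.40 ± 0.26 (unadjusted p = 0.137, edgeR), and 0.59 ± 0.27 without that library (unadjusted p = 0.0353, adjusted p = 0.982, edgeR). On the length-scaled TPM values of the authors, Cyp1a2 in LPS_EF_PF (1382 ± 223.9, SD, n = 4) remained far above Cyp1a1 (38.6 ± 15.7).

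Ugt1a6, a glucuronosyltransferase, measured 6.80, 9.54, 8.26, 6.69 and 11.5 CPM in LPS_EF 3 to 7 and 15.8, 10.5, 7.96 and 15.6 CPM in LPS_EF_PF 1, 3, 4 and 6. The groups overlapped, and its log2 fold change was 0.54 ± 0.28 (0.67 ± 0.30 without LPS_EF 7). Its value is uncertain because Ugt1a genes share exons. The receptor gene Ahr itself (log2 fold change -0.12 ± 0.26), the poly-ADP-ribose polymerase gene Tiparp (-0.06 ± 0.12), Cyp1b1 (0.56 ± 0.65) and the quinone reductase Nqo1 (0.27 ± 0.33) overlapped between the groups. Without LPS_EF 7 these were -0.09 ± 0.28, 0.0037 ± 0.13, 0.34 ± 0.68 and 0.18 ± 0.35. The signs of Ahr and Tiparp turned with the TPM values, and that of Tiparp also with total-count scaling and without LPS_EF 7. In all, 1 of the 7 tested members had an unadjusted p under 0.05 in the direction of higher levels, and 3 of 7 without LPS_EF 7, beside 3.23% and 2.23% of all genes tested.

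Promoter sequences of the Ah receptor list were read to show which carry the receptor's core element, since Cyp1a2 and Ugt1a6 are its members with the lowest unadjusted p after Cyp1a1. RefSeq sequences of build GRCr8, from 250 bases before to 50 after the start of the gene, were matched by symbol for 7 of the 9 members, not including Cyp1a1. The core was searched as GCGTG on either strand (CACGC on the strand shown), and 5 of the 7 held it, beside 29.7% of all 33469 promoters in the table. The Ugt1a6 window (chr9:96194768-96195067, plus strand) had 1 match and the Cyp1a2 window (chr8:66978100-66978399, minus strand) had 0. Both are given 5′ to 3′ with the match in capitals.
Ugt1a6: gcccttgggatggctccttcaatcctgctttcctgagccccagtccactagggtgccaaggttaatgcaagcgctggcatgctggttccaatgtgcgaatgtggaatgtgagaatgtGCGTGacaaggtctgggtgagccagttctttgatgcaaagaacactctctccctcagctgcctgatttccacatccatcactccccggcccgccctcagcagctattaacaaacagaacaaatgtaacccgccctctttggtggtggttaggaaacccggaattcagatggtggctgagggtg
Cyp1a2: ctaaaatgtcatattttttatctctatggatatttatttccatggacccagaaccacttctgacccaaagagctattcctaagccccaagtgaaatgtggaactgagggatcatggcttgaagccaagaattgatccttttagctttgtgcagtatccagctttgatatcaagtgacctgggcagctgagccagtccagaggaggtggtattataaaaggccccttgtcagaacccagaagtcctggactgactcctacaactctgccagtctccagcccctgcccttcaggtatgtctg
A match describes these letters only, and no match says nothing about binding outside the window.

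Beyond Cyp1a1, 1205 genes had an unadjusted p under 0.05 (8.15%), of which 477 were higher (3.23%) and 728 lower (4.92%) in LPS_EF_PF. Without LPS_EF 7 there were 330 higher (2.23%) and 408 lower (2.76%). The direction of this wider set depended on the scaling: with total counts in place of composition-scaled counts, the median gene moved from -0.0026 to 0.112 on the log2 scale, and 1451 genes were higher and 197 lower at that p. All 4 LPS_EF_PF libraries lay above all 5 LPS_EF libraries for 259 genes (1.75%) and below them for 305 (2.06%). Without LPS_EF 7 the numbers were 348 (2.35%) and 409 (2.77%). The changes described from here on did not pass the adjusted threshold and are given as values.

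The 10 genes of smallest p with a mean of at least 2 CPM and a proper gene symbol held 6 lower and 3 higher ones besides Cyp1a1. Pfkfb1, which makes and breaks down the glycolytic regulator fructose 2,6-bisphosphate, measured 39.4, 37.9, 24.4, 29.3 and 119.4 CPM in LPS_EF 3 to 7 and 14.6, 20.75, 21.6 and 8.10 CPM in LPS_EF_PF 1, 3, 4 and 6. The groups did not overlap, and LPS_EF 7 was the highest by a wide margin and above the control range of 50.8 to 78.4 CPM. The log2 fold change of Pfkfb1 was -1.62 ± 0.34 (adjusted p = 0.216, edgeR), and -1.01 ± 0.26 without LPS_EF 7 (adjusted p = 0.761). Intu, a planar cell polarity gene needed for cilia, measured 1.83, 1.26, 1.26, 1.17 and 1.72 CPM in LPS_EF and 2.77, 3.21, 3.21 and 2.88 CPM in LPS_EF_PF. Its groups did not overlap, with a log2 fold change of 1.06 ± 0.23 (adjusted p = 0.216, edgeR) that was 1.13 ± 0.24 without LPS_EF 7. Parp3, a poly-ADP-ribose polymerase family member of DNA repair, measured 28.6, 33.8, 27.5, 28.1 and 21.6 CPM in LPS_EF and 39.7, 40.5, 40.3 and 44.55 CPM in LPS_EF_PF. These groups were likewise apart, with a log2 fold change of 0.56 ± 0.12 that was 0.48 ± 0.13 without LPS_EF 7. DESeq2 called Pfkfb1, Intu and Parp3 where edgeR did not.

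Tkfc, the kinase that phosphorylates glyceraldehyde from fructose, had 39.3 to 70.4 CPM in LPS_EF_PF and 73.4 to 201.3 in LPS_EF (log2 fold change -1.12 ± 0.29, -0.87 ± 0.28 without LPS_EF 7). Glud1, the mitochondrial glutamate dehydrogenase, had 468.1 to 557 CPM against 571.2 to 1059 (-0.58 ± 0.15, -0.42 ± 0.14 without LPS_EF 7). Hsd17b4, the bifunctional enzyme of peroxisomal beta-oxidation, had 373.2 to 415.8 CPM against 424.3 to 506.9, and its log2 fold change of -0.28 ± 0.07 was nearly the same without LPS_EF 7, at -0.27 ± 0.08. The other 3 genes were Mettl7a (-0.44 ± 0.12), the amidoxime reductase Marc1 (-0.52 ± 0.14) and the phosphatase Cdc14a (0.55 ± 0.14). Without LPS_EF 7 they had -0.39 ± 0.12, -0.45 ± 0.14 and 0.55 ± 0.16. With all libraries, the adjusted p of these 3 genes and of Tkfc, Glud1 and Hsd17b4 was 0.476 (edgeR).

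**Figure D3:**
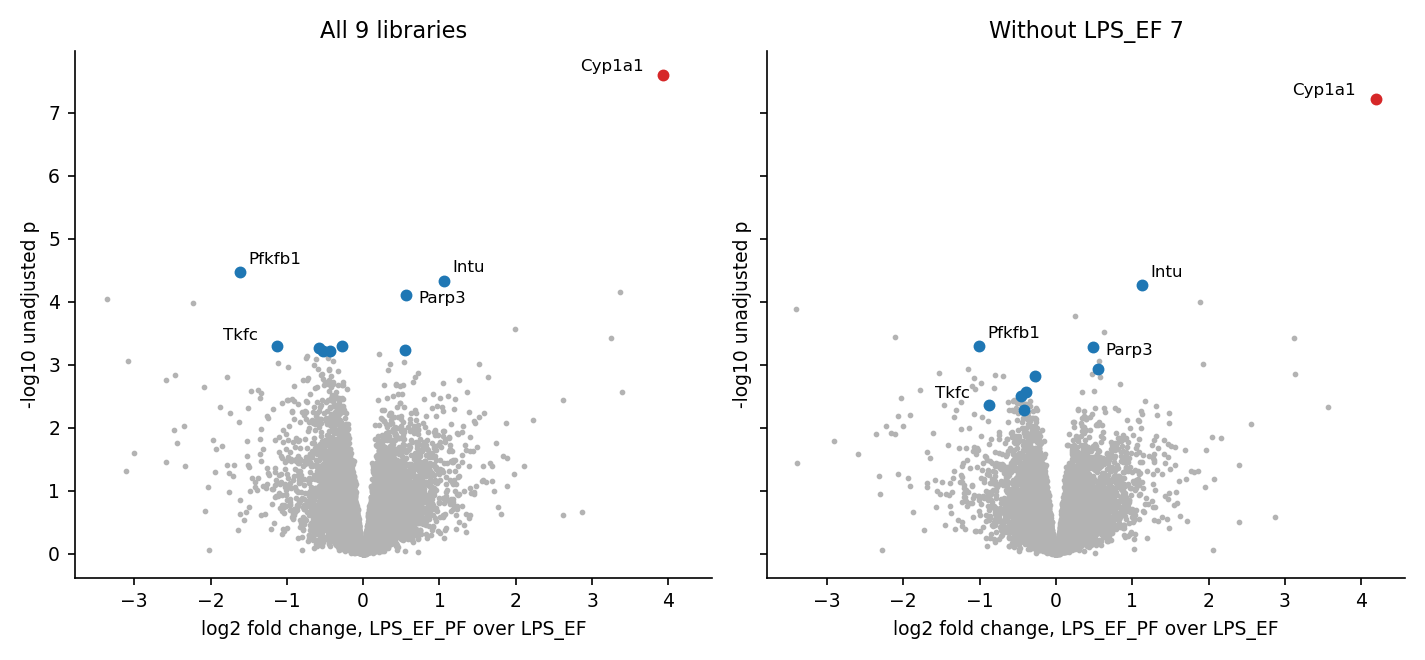
Log2 fold change of LPS_EF_PF over LPS_EF (x) against -log10 of the unadjusted p (y) for each gene tested, with all 9 libraries (left) and without LPS_EF 7 (right). Red marks Cyp1a1, the gene past the adjusted threshold in both panels, and blue the other 9 genes of smallest p with a mean of at least 2 CPM and a proper gene symbol, chosen with all libraries, of which Pfkfb1 moves from -1.62 to -1.01.

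Genes of cholesterol synthesis, the mevalonate and sterol pathway, were lower on average in LPS_EF_PF. All 26 listed were tested and all 26 had a log2 fold change below 0, with a median of -0.39 beside -0.0026 for all genes, and 6 had an unadjusted p under 0.05, beside 4.92% of all genes lower at that p. None passed the adjusted threshold. Without LPS_EF 7 the 26 were again all below 0, with a median of -0.46 and 10 with an unadjusted p under 0.05, beside 2.76% of all genes. With total-count scaling 24 of 26 were below 0. Nsdhl, a sterol dehydrogenase, measured 341.2 to 385.9 CPM in LPS_EF and 237.3 to 326.5 in LPS_EF_PF (-0.40 ± 0.16), and Ebp, the sterol isomerase, 146.6 to 174 against 118.8 to 135.5 (-0.38 ± 0.16). Without LPS_EF 7 these were -0.41 ± 0.17 and -0.42 ± 0.17. In both, all LPS_EF_PF libraries lay below all LPS_EF libraries, including LPS_EF 7. At the start of the pathway, Hmgcs1 overlapped widely, with 633.4 to 1641 CPM in LPS_EF and 676.7 to 1277 in LPS_EF_PF (-0.25 ± 0.27, and -0.41 ± 0.27 without LPS_EF 7), the lowest value of all being LPS_EF 7. Cyp51, the lanosterol demethylase, had -0.43 ± 0.25 and -0.54 ± 0.26 without that library.

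Fatty acid oxidation genes and other targets of the nuclear receptor PPAR alpha were also lower. Of 32 tested, 31 had a log2 fold change below 0 (median -0.34, and -0.28 without LPS_EF 7), and 13 had an unadjusted p under 0.05, 9 without LPS_EF 7, beside 4.92% and 2.76% of all genes. All LPS_EF_PF libraries lay below all LPS_EF libraries for 7 of the 32, beside 2.06% of all genes, among them 6 genes of mitochondrial beta-oxidation: Cpt2, Acadm, Acadl, Acads, Etfa and Slc25a20. The other one was Fgf21, a liver hormone gene. Acadl, the long-chain acyl-CoA dehydrogenase, measured 290.5, 296, 320.3, 279.2 and 314.8 CPM in LPS_EF and 212.6, 245.9, 260.1 and 220.7 CPM in LPS_EF_PF (log2 fold change -0.35 ± 0.14, and -0.34 ± 0.15 without LPS_EF 7). Slc25a20, the carnitine-acylcarnitine carrier of the inner membrane, measured 110.1 to 129.5 CPM in LPS_EF and 85.85 to 102.1 in LPS_EF_PF (-0.35 ± 0.15, and -0.32 ± 0.15 without LPS_EF 7). Etfa, a subunit of the flavoprotein that takes electrons from these dehydrogenases, measured 153.2 to 194.4 against 125.4 to 141.9 (-0.33 ± 0.12, and -0.26 ± 0.12 without LPS_EF 7).

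Lipogenic genes were mostly lower, with 19 of 24 below 0 (median -0.36, and -0.31 without LPS_EF 7). At an unadjusted p under 0.05 (edgeR), 5 of the 24 were lower and 0 higher. Without LPS_EF 7, 1 was lower and 0 higher, beside 4.92% and 2.76% of all genes lower in the 2 settings. Scd, the stearoyl-CoA desaturase, measured 455, 222.2, 342.6, 704.5 and 1120 CPM in LPS_EF 3 to 7 and 67.9, 275.1, 29.5 and 37.45 CPM in LPS_EF_PF 1, 3, 4 and 6. LPS_EF_PF 3 lay inside the LPS_EF range and the other 3 below it. The log2 fold change of Scd was -2.47 ± 0.71 (adjusted p = 0.476, edgeR), and -2.07 ± 0.71 without LPS_EF 7. Dgat2, which completes triglyceride synthesis, was the 1 member of the 24 whose groups were apart, beside 2.06% of all genes, with 262.1 to 402 CPM in LPS_EF and 215.1 to 259.6 in LPS_EF_PF.

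Amino acid and glucose metabolism followed the library that stood apart more closely. Of 24 gluconeogenic and amino acid-degrading genes tested, 23 had a log2 fold change below 0 with a median of -0.43, which was -0.30 without LPS_EF 7, and 8 had an unadjusted p under 0.05, 4 without it, beside 4.92% and 2.76% of all genes. All 9 urea cycle genes tested were below 0 (median -0.31), and 8 of 9 without LPS_EF 7 (-0.22). Cps1, which fixes ammonia in the first step of the urea cycle, measured 2781, 3397, 2799, 2561 and 4916 CPM in LPS_EF 3 to 7 and 1672, 2037, 2521 and 1768 CPM in LPS_EF_PF 1, 3, 4 and 6. The groups were apart by little, and LPS_EF 7 was the highest. Its log2 fold change was -0.72 ± 0.21, and -0.53 ± 0.20 without LPS_EF 7. Of 19 hepatocyte markers, 15 were below 0 (median -0.21, and -0.13 without LPS_EF 7), and 11 with total-count scaling. At an unadjusted p under 0.05 (edgeR), 4 of 9 urea cycle genes and 7 of 19 hepatocyte markers were lower. Without LPS_EF 7 these were 2 and 3, beside 4.92% and 2.76% of all genes in the 2 settings. In both lists and both settings 0 were higher. Hnf4a, the nuclear receptor that maintains hepatocyte identity, measured 428.4 to 716 CPM in LPS_EF and 348.9 to 424.7 in LPS_EF_PF (-0.46 ± 0.15, -0.33 ± 0.14 without LPS_EF 7). The summed hepatocyte markers ran from 150000 to 164300 CPM in LPS_EF_PF and from 158200 to 179500 in LPS_EF 3 to 6, with 215000 in LPS_EF 7.

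Bile acid genes were less uniform, with 17 of 23 below 0 and 12 of 23 without LPS_EF 7 (medians -0.18 and -0.03). With total-count scaling 12 of 23 were below 0. Slc27a5, which activates bile acids for conjugation, had 386.3 to 541.7 CPM in LPS_EF_PF and 596.3 to 1197 in LPS_EF (-0.80 ± 0.27, and -0.64 ± 0.28 without LPS_EF 7). Acox2, the branched-chain oxidase of bile acid side chains, and the sterol carrier Scp2 were the other 2 members whose groups were apart (-0.38 ± 0.12 and -0.22 ± 0.11, and -0.28 ± 0.12 and -0.19 ± 0.12 without LPS_EF 7). These 3 of 23 stood beside 2.06% of all genes. In the complement and coagulation list, 29 of 36 were below 0 (median -0.12) and 32 without LPS_EF 7 (-0.14), but with total-count scaling the list was nearly even, with 19 below and 17 above. The groups were apart for C4a, F2, F9, F10, F12, Serpinc1 and Pros1, each lower in LPS_EF_PF. That is 7 of 36, beside 2.06% of all genes, and members of such a list are not independent of each other. At an unadjusted p under 0.05 (edgeR), 7 of the 36 were lower with all libraries, beside 4.92% of all genes. Without LPS_EF 7 only 1 was (2.78%), beside 2.76% of all genes. In both settings 0 were higher at that p.

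**Figure D4:**
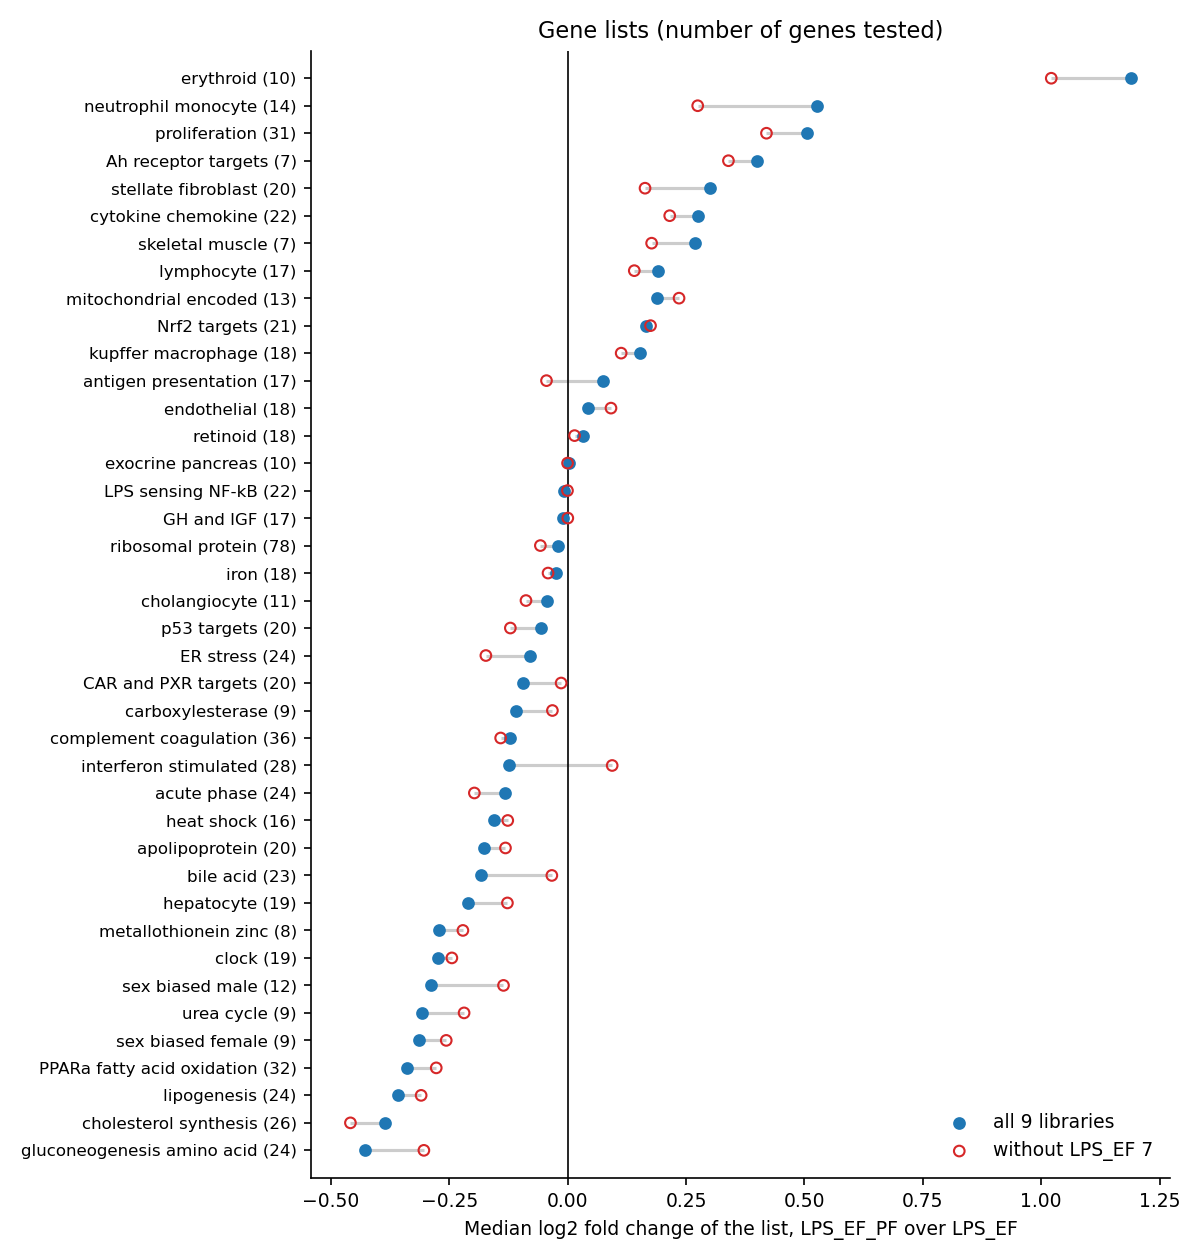
Median log2 fold change of LPS_EF_PF over LPS_EF (x) for each gene list (y, with the number of genes tested), with all 9 libraries (blue) and without LPS_EF 7 (open red). Cholesterol synthesis lies at -0.39 and -0.46, whereas the interferon list crosses 0, from -0.12 to 0.09.

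Genes of the LPS response itself had no call, and the direction of some turned on LPS_EF 7. Of 24 acute phase genes, 18 were below 0 with all libraries (median -0.13) and 23 without LPS_EF 7 (-0.20), but 13 with total-count scaling. Of the 24, 2 were lower at an unadjusted p under 0.05 with all libraries and 0 without LPS_EF 7, beside 4.92% and 2.76% of all genes. All LPS_EF_PF libraries lay below all LPS_EF libraries for 1 of them, and for 5 without LPS_EF 7, beside 2.06% and 2.77%. Lbp had a log2 fold change of 0.26 ± 0.50 with LPS_EF 7 and -0.03 ± 0.44 without it. The interferon-stimulated list turned from a median of -0.12 to 0.09. In the NF-kB and LPS sensing list, 12 of 22 were below 0, and 7 with total-count scaling, which turned the median to 0.11. The groups were apart for 1 member above and 2 below, beside 1.75% and 2.06% of all genes. Bcl3, a nuclear partner of NF-kB p50 and p52, measured 11.6, 6.05, 6.76, 22.8 and 12.4 CPM in LPS_EF and 5.305, 3.68, 3.18 and 3.41 CPM in LPS_EF_PF (log2 fold change -1.62 ± 0.57, -1.61 ± 0.60 without LPS_EF 7). Tlr4, the LPS receptor, measured 1.40, 2.11, 2.21, 1.32 and 1.35 CPM in LPS_EF and 2.45, 2.61, 2.78 and 2.49 CPM in LPS_EF_PF (0.62 ± 0.29, 0.55 ± 0.31 without LPS_EF 7). Rela, the p65 subunit, differed by -0.11 ± 0.08 (-0.10 ± 0.08 without LPS_EF 7), with a sign that turned under total-count scaling.

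Markers of other cells moved with the groups in part. Of 14 neutrophil and monocyte genes tested, 13 were above 0 (median 0.53), and 12 without LPS_EF 7 (0.27). Their summed level was 80.95 CPM in LPS_EF 7, 175.6 to 274.2 in LPS_EF 3 to 6 and 215.8 to 322.3 in LPS_EF_PF, none of the 20 in the table was at 0 in all 9 libraries, and 6 (Fpr1, Mpo, Ly6c, Ltf, Camp and Np4) were too low to test. Siglec10, a leukocyte lectin, measured 3.54, 12.2, 9.64, 5.79 and 3.37 CPM in LPS_EF and 12.9, 16.2, 13.75 and 10.6 CPM in LPS_EF_PF, where LPS_EF_PF 6 lay inside the LPS_EF range (log2 fold change 0.96 ± 0.40, and 0.78 ± 0.41 without LPS_EF 7). Kupffer cell markers had 17 of 18 above 0 (median 0.15), 14 without LPS_EF 7 (0.11), and overlapping sums, from 906.8 to 1684 CPM in LPS_EF and from 1330 to 1700 in LPS_EF_PF. Stellate cell and fibroblast markers had 19 of 20 above 0 (median 0.30, and 0.16 without LPS_EF 7), with sums of 938.4 CPM in LPS_EF 7, 1181 to 1745 in LPS_EF 3 to 6 and 1296 to 1853 in LPS_EF_PF. At an unadjusted p under 0.05 (edgeR), 0 of 14 neutrophil, 1 of 18 Kupffer cell and 0 of 20 stellate cell genes were higher. That stood beside 3.23% of all genes. Without LPS_EF 7 each list had 0, beside 2.23%. In these lists 0 members had groups apart, beside 1.75% of all genes above. The endothelial list had 10 of 18 above 0 (12 without LPS_EF 7), the cholangiocyte list 5 of 11 (2). The lymphocyte list had 14 of 17 above 0 in both. The part of these cells in the results above was not tested.

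**Figure D5:**
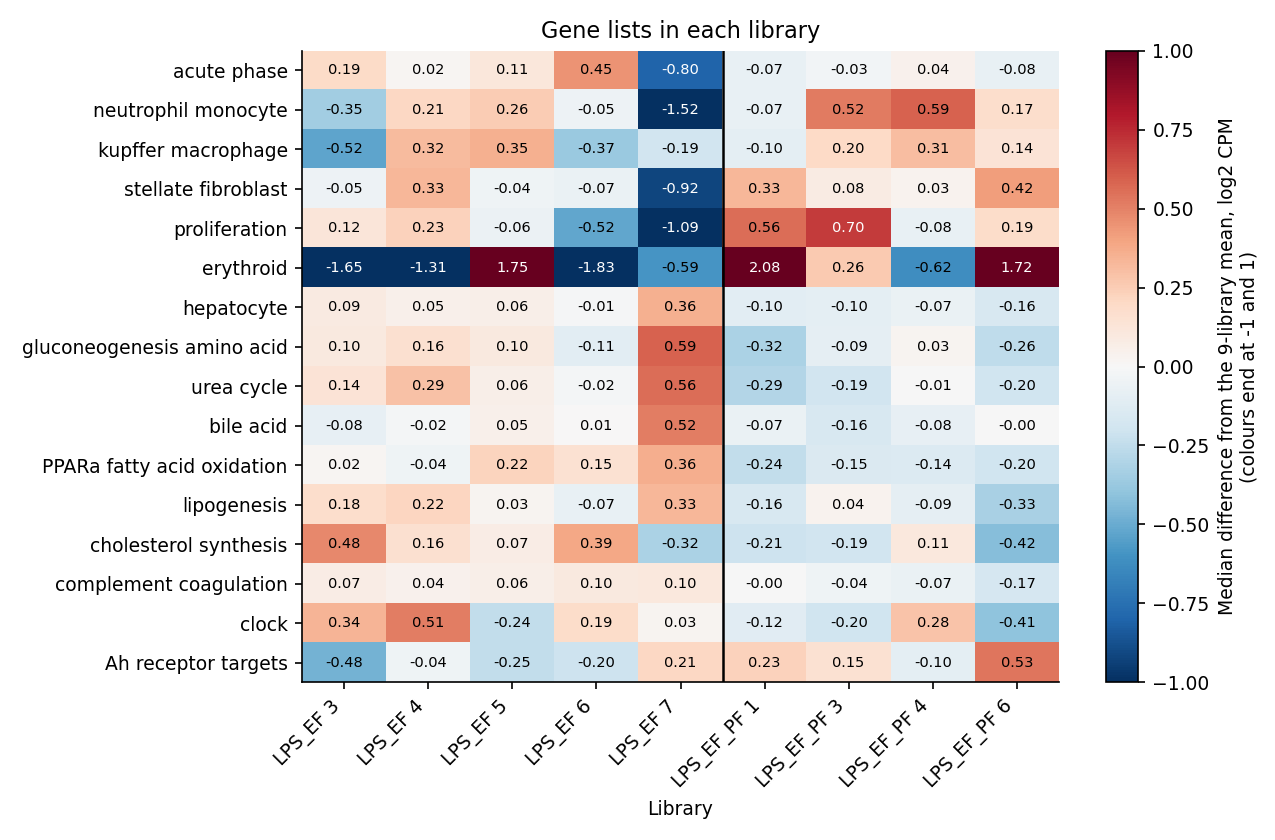
Median over the tested genes of each list (rows) of the difference in log2 CPM from the gene's mean over the 9 libraries, for each library (columns, LPS_EF left and LPS_EF_PF right of the line), where colours end at -1 and 1. LPS_EF 7 is low for acute phase (-0.80) and neutrophil genes (-1.52) and high for urea cycle genes (0.56), while for cholesterol synthesis it is low (-0.32), unlike the rest of its group.

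Proliferation genes had 26 of 31 above 0 (median 0.505, and 0.42 without LPS_EF 7), and 8 had an unadjusted p under 0.05 in that direction, 2 without LPS_EF 7, beside 3.23% and 2.23% of all genes. Relative to the 9-library mean, the list was at 0.12, 0.23, -0.06, -0.52 and -1.09 in LPS_EF 3 to 7 and at 0.56, 0.70, -0.08 and 0.19 in LPS_EF_PF 1, 3, 4 and 6, so the groups overlapped. Against the list's direction, the kinase gene Cdk2 measured 9.115 to 12.8 CPM in LPS_EF and 8.51 to 8.96 in LPS_EF_PF (-0.33 ± 0.10, and -0.27 ± 0.10 without LPS_EF 7). All 13 genes encoded by mitochondrial DNA were above 0 (median 0.19, and 0.24 without LPS_EF 7), and they are not independent of each other. Their summed level overlapped, with 32870 to 40360 CPM in LPS_EF and 35740 to 38720 in LPS_EF_PF. The groups were apart for 0 of the 13. At an unadjusted p under 0.05 (edgeR) 3 were higher, and 2 without LPS_EF 7, beside 3.23% and 2.23% of all genes. Nfe2l2, which encodes the oxidative stress regulator Nrf2, measured 81.8, 77.1, 87.4, 78.9 and 77.1 CPM in LPS_EF and 121.6, 99.25, 93.8 and 127.8 CPM in LPS_EF_PF, with the groups apart (0.46 ± 0.14, and 0.44 ± 0.15 without LPS_EF 7). Of the 21 genes of the Nrf2 list, Nfe2l2 included, 17 were above 0 (median 0.16), and 15 without LPS_EF 7.

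Red cell and clock genes varied between libraries within both groups. Erythroid genes had a median of 1.19 with 9 of 10 above 0 (1.02 and 9 of 10 without LPS_EF 7), and beta-globin (Hbb) measured 15.3, 30.6, 124.7, 10.6 and 30.4 CPM in LPS_EF and 122.9, 48.3, 37.5 and 142.5 CPM in LPS_EF_PF. LPS_EF 5 lay between the highest LPS_EF_PF libraries, and the log2 fold change of Hbb was 1.05 ± 0.67 (0.95 ± 0.73 without LPS_EF 7). Dbp, a clock output gene with a strong daily rhythm in liver, measured 110.1, 110, 1.86, 64.9 and 13.4 CPM in LPS_EF and 22.02, 23.02, 95.65 and 6.50 CPM in LPS_EF_PF. Cry1, a repressor of the clock, had 3.22 to 5.275 CPM in LPS_EF and 1.59 to 2.65 in LPS_EF_PF (-0.82 ± 0.29, and -0.71 ± 0.30 without LPS_EF 7). The part of blood and of the time of day in the other results was not tested.

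The same addition of PF to EF without LPS (EF_PF against EF, n = 5 each) shared no library with the comparison above. Without LPS, 24 genes passed the adjusted threshold (0.162%), 10 higher and 14 lower. That number was unstable: leaving out any 1 of the 10 libraries gave 1 to 73 calls, and DESeq2 gave 164. Cyp1a1 measured 1.30 to 6.77 CPM in EF and 55.7 to 213.3 in EF_PF (log2 fold change 5.45 ± 0.57, adjusted p = 6.07e-07, edgeR) and was the 1 gene called in both. The difference between the effects, -1.52 on the log2 scale, had an unadjusted p of 0.0444 and an adjusted p of 0.623 (edgeR interaction term), so a smaller effect after LPS was not established. Cyp1a2 measured 814.9 to 1840 CPM in EF and 2133 to 3333 in EF_PF, groups that did not overlap, with a log2 fold change of 1.10 ± 0.25 (adjusted p = 0.0636, edgeR) beside 0.40 ± 0.26 after LPS (interaction -0.70, unadjusted p = 0.0635). Of the other 23 genes called without LPS, 19 had the same sign after LPS. Of these, 5 had an unadjusted p under 0.05 after LPS (Macrod2, Hn1l, Arl1, Wdr92 and Edem3, edgeR). No called gene of opposite sign had such a p, and 8.15% of all genes had it in either direction. The interaction had an unadjusted p under 0.05 (edgeR) for 18 of the 23, beside 7.82% of all genes. The 23 were chosen for their size without LPS. The smaller size after LPS and the number of interactions are therefore a description. Macrod2, a mono-ADP-ribosylhydrolase gene, had -2.50 ± 0.46 without LPS and -1.16 ± 0.45 after it.

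The metabolic lists differed in their medians between the 2 settings. The cholesterol synthesis median was -0.22 without LPS and -0.39 after it, and that of fatty acid oxidation -0.20 and -0.34. The gluconeogenic list had 0.03 without LPS and -0.43 after it, and the urea cycle list 0.09 and -0.31. Leaving out LPS_EF 7, the medians after LPS were -0.46 for cholesterol synthesis and -0.28 for fatty acid oxidation. They were -0.30 for the gluconeogenic list and -0.22 for the urea cycle list. No gene passed the adjusted threshold for the interaction (0 of 14786 in edgeR, 1156 at an unadjusted p under 0.05, 0 in limma voom and 7 in DESeq2), so edgeR showed no gene that responded to PF differently with and without LPS. The smallest p among named genes was that of Parp3 (log2 interaction 0.81, adjusted p = 0.383, edgeR), which had -0.24 ± 0.12 without LPS and 0.56 ± 0.12 after it. Mettl7a (-0.71), Gpcpd1 (0.75), Hnrnpk (0.32), Cct8 (0.33) and Wbp1l (-0.47) followed, each with a log2 fold change of opposite sign in the 2 settings. Of these 6 genes, DESeq2 called the interaction for 5 (Parp3, Mettl7a, Gpcpd1, Hnrnpk and Cct8).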

How the data were processed

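RNA sequencing counts of 38 rat livers in 8 groups were used, with groups taken from the labels. The deposited counts are read pairs per gene name, made by the authors with featureCounts 2.0.6 and an rn6 RefSeq annotation without a strand option, per the file headers. Counts of overlapping antisense genes and near-identical copies are uncertain. STAR, RSEM and mRatBN7.2 are named too in the submitters' processing notes, and positions are printed as in the count table. The deposited TPM values (scaled by gene length and library total by the authors) served for levels between genes and for 2 alternative fits. The table holds 31038 genes, 7071 of them at 0 in all libraries.

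Counts were fitted with edgeR 4.0.16 (R 4.3.3, TMM scaling, filterByExpr with a minimum count of 10, quasi-likelihood test) over all 38 libraries, which share 1 estimate of the spread, leaving 14786 genes. The contrasts were LPS_EF_PF minus LPS_EF, EF_PF minus EF and their difference. Benjamini-Hochberg adjusted p under 0.05 over all genes was a call. The test was also run on simulated counts drawn from its own fitted spread. These held no outlying library and no correlation between genes, so they say nothing about either. Errors of log2 fold changes are SE. CPM are TMM-scaled. Groups are called apart when no library overlaps. Alternatives used DESeq2 1.42.0, limma 3.58.1, other scalings and filters, and left out each library.

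Members and gene lists were chosen with earlier results of these data known. Genes named are the calls, the 10 of smallest p with a mean of at least 2 CPM and a proper gene symbol, up to 2 members of highest CPM per list, 6 genes checking the LPS response and the 6 of smallest interaction p. List members named because their groups were apart, the remaining Ah receptor genes and the 5 genes followed from the fit without LPS were chosen after their values were seen. All samples carry 1 batch label. No 2 libraries within LPS_EF or within LPS_EF_PF agreed within sampling noise. Reads without molecular identifiers are not independent molecules.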

Additional observations from a re-analysis of the deposited data

Results flagged for a closer look

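Among 138 sets of libraries (69 genes in 2 groups), 12 had 1 library with a gap to the rest that Dixon's test marks. For independent, normally distributed values chance marks about 1 in 20. That rate need not hold here, because the CPM were not log-transformed. The genes are also not independent of each other, and some were chosen after their values were seen. Of the 12, 6 were in LPS_EF 7 and 4 in LPS_EF_PF 6. In LPS_EF 7, Lbp was low at 251.8 CPM (others 2350 to 3022) and Col4a1, a basement membrane collagen, low at 81.5 (others 202 to 223.6). In the same library Pfkfb1 was high at 119.4 CPM (others 24.4 to 39.4), as were Cyp1a2 at 1419 (others 760.4 to 932), Acox2 at 653.3 (others 459.5 to 492.9) and Wbp1l at 356 (others 320.4 to 329.1). In LPS_EF_PF 6, Cyp1a1 was high at 78.1 CPM (others 39.0 to 41.05), Cyp1a2 at 1531 (others 1155 to 1174), Parp3 at 44.55 (others 39.7 to 40.5) and Lcn2 at 1085 (others 30.35 to 36.4). Scd was high in LPS_EF_PF 3 at 275.1 CPM (others 29.5 to 67.9), and Hbb in LPS_EF 5 at 124.7 (others 10.6 to 30.6).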

How the results depend on the processing

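Cyp1a1 was called in each of the 19 alternatives run. The number of genes called after LPS was 1, and 6 with DESeq2 (Cyp1a1, Intu, Parp3, Pfkfb1, LOC685590 and LOC103690608) and 2 with only the 9 libraries (Cyp1a1 and LOC685590). Leaving out 1 library gave 1 to 2 calls, the second being Pfkfb1 (adjusted p = 0.0468, edgeR) without LPS_EF 5. Leaving out LPS_EF 7 and LPS_EF_PF 6 together, chosen after seeing the data, gave 1. Without LPS, the 24 calls became 164 with DESeq2, 4 with total counts, 5 with no filter on low counts, 8 with the replicate block, 1 with only the groups compared, 1 with either TPM fit and 1 to 73 on leaving out 1 library (73 without EF 4, 1 without EF 1 or EF_PF 2). The interaction had 7 calls in DESeq2 and 0 in each other fit. For the replicate block, numbers 3, 4 and 6 occur in both LPS groups, where same-numbered libraries correlated at 0.009, 0.107 and -0.033. Libraries of unlike number correlated at -0.316 to 0.246. Correlations this few cannot tell whether the numbers pair the samples. The block left 1 call after LPS and 0 for the interaction.

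Of 69 genes, 63 kept their sign in each alternative, and the other 6 had no call in the fit of the report. A2m turned to 0.48 (voom) and 0.50 and 0.58 (TPM with pseudocounts 1 and 0.1), Tiparp to 0.0523 (total counts), 0.0107 (replicate block), 0.0479 and 0.0549 (TPM), Rela to 0.0014 (total counts), Ahr to 0.0346 and 0.0389 (TPM), and Fga to -0.0611 (replicate block) and -0.1157 (both libraries left out). Leaving out 1 library gave -0.123 to 0.0037 for Tiparp, -0.2521 to 0.0573 for Ahr, -0.5065 to 0.0469 for A2m, -0.0256 to 0.3925 for Lbp and -0.1567 to 0.2247 for Fga. The cause was not tested. At 23371592 or more read pairs a library, depth limits genes below 10 read pairs, such as Ahrr. The median SE over genes was 0.17 on the log2 scale.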
